A study of Homo sapiens with 8 samples.

Results

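DOHH2 is a widely used human line from a germinal centre type of B-cell lymphoma, and the 4 arrays described here hold RNA of DOHH2 cells kept in vehicle, dimethyl sulfoxide (DMSO), for 4, 8, 12 or 24 h. They are the 4 of the 8 arrays of the study whose treatment label is DMSO, and they were divided by their labelled time into an early side (4 and 8 h) and a late side (12 and 24 h), with 2 arrays a side. The other 4 arrays hold the same line at the same times in BAY1238097, an inhibitor of the bromodomains of the BET proteins, and their late and early arrays are given beside the vehicle values. No dose is given in the sources used here, and untreated cells at the start of the culture were not analysed here. Total RNA was labelled with biotin and hybridised to Illumina bead arrays, 1 array for each treatment and time. Nothing in the labels says whether each array had a culture of its own, so the errors below measure the spread between these arrays. Each side pairs 2 different times, so that spread includes any change within a side. A gene that moves steadily with time thus gets a larger error. A vehicle time course of this kind shows what differs between hours of culture without the inhibitor.

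Several programmes of gene expression follow the state of a culture. When oxygen falls, hypoxia-inducible factors (HIF) are no longer marked for destruction by prolyl hydroxylases, bind short DNA sites with the core ACGTG and raise genes of glucose uptake, glycolysis and mitochondrial turnover. NF-kappaB dimers are held in the cytoplasm by inhibitors such as NFKBIA and NFKBIE, which are themselves NF-kappaB targets, and in B cells they act downstream of CD40, Toll-like receptors and the B cell receptor on chemokines and survival genes. When sterols are scarce in the endoplasmic reticulum, SREBP factors are released and raise the enzymes of cholesterol synthesis.

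All values below are deposited log2 values, quantile normalised, in order of time (4, 8, 12 and 24 h). A difference is the mean of the 2 late arrays minus the mean of the 2 early arrays on the log2 scale, with the standard error of the moderated limma fit (n = 2 arrays a side), so 1 unit is a doubling. Because dim probes sit near background, such differences understate the change of dim genes. Of the 47231 probes, 19375 were brighter on average than the 95th percentile of 437 probes of olfactory receptor genes, which served as background, and these named 10735 genes. Of the B cell markers on the array, 6 of 7 were above background on all 4 vehicle arrays, among them CD79A, CD79B and CD74, while PAX5 was above it on none. Of 6 germinal centre markers only MME and SERPINA9 were above background on all 4, and BCL6, LMO2, MYBL1 and RGS13 were above it on none. No marker of T, NK, erythroid, epithelial, fibroblast or endothelial cells was above background on all 4 arrays, and of 8 myeloid markers CD68 and FCGR3A were. CD68, a lysosomal protein, had values of 10.29, 9.6, 9.09 and 9.28, a late minus early difference of -0.76, and its part in the results below was not tested.

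The 4 h array was the dimmest of the vehicle arrays before normalization. Its mean intensity was 264.3, against 383.3 at 8 h, 419.1 at 12 h and 406.9 at 24 h. The BAY1238097 array of 4 h was also the dimmest of its group, with 262.3 against 330.7, 365.9 and 334.2. On the normalised scale the 4 h array was the farthest from the rest. The SD of its difference from the 24 h array was 0.4192 over the genes, each by its brightest kept probe. The arrays of 12 and 24 h differed by an SD of 0.1648 and those of 8 and 12 h by 0.2241. Brightness therefore moves with the early and late sides, and its part in the differences below was not tested. For the gene lists below, the count against the 8 h array alone is given beside a count of at least 3 that it moves by more than 1.5 times.

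No gene passed the test of late against early. With limma and Benjamini-Hochberg adjustment 0 of 10735 genes (percent called 0) had an adjusted p under 0.05, the smallest was 0.137, and 2469 genes had an unadjusted p under 0.05, of which 1206 were higher and 1263 lower late. An exact permutation of 2 against 2 arrays cannot go below a two-sided p of 0.333. The counts that follow are therefore descriptions. Both late arrays lay above both early arrays for 3189 genes (29.7%) and below them for 3200 (29.8%), 59.5% in all. With a difference of at least 0.5 as well, 516 genes were higher late (4.81%) and 564 lower (5.25%), and 29 and 39 differed by 1 or more. Because each array averages a whole culture, fewer cells with a transcript and less transcript per cell cannot be told apart.

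Those counts depend on the 4 h array and on the scaling. Against 8 h alone, 242 genes (2.25%) were higher and 239 (2.23%) lower on both late arrays, by a mean of at least 0.5. Of the 516 genes higher late 229 (44.4%) met that too, and of the 564 lower 214 (37.9%). In the other direction, against the 4 h array alone 2554 genes (23.8%) had an adjusted p under 0.05 by limma, with that single array assumed to vary like the late pair. Of these 1289 were higher (12%) and 1265 lower (11.8%). The matching setting called 366 genes (3.41%) in BAY1238097 and, without both 8 h arrays, 63 (0.587%) for the difference between the treatments. Against the 8 h array alone 0 did (smallest adjusted p 0.173, 1878 at an unadjusted p under 0.05). Scaling each array to its median in place of quantile normalization moved the median gene by 0.215, and the split of genes separated by at least 0.5 became 2062 higher and 129 lower. With normexp background correction and median scaling the median moved by 0.309 and the split became 3060 and 115. For that reason gene groups are read against the median of all genes, which was 0.00625 on the deposited scale.

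**Figure D1:**
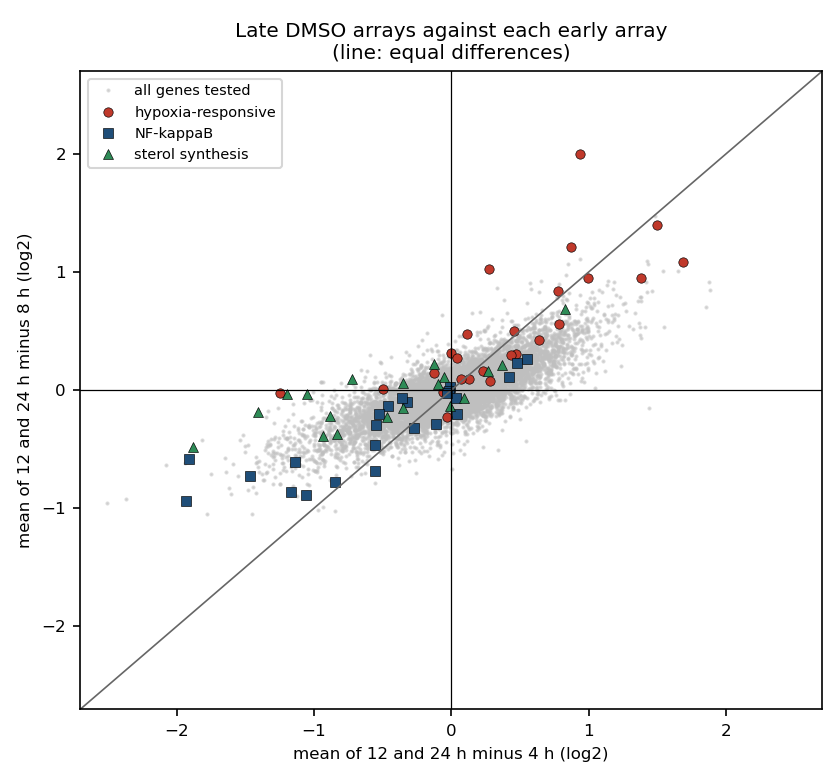
Each point is 1 gene, with the mean of the 12 and 24 h vehicle arrays minus the 4 h array on the horizontal axis and minus the 8 h array on the vertical axis (both log2), and the line marks equal differences. For 57% of all genes the 8 h value was closer to the late mean than to the 4 h value, a comparison that the line does not mark. PFKFB4 lies above the line at a late minus 8 h difference of 2.0, and CYP51A1 has a difference of only -0.48 from 8 h.

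The step sizes shrank along the course. The median absolute difference between neighbouring arrays was 0.153 from 4 to 8 h, 0.122 from 8 to 12 h and 0.0892 from 12 to 24 h, although the last interval is the longest. Of the 516 genes higher late, 169 had their largest step from 4 to 8 h, 307 from 8 to 12 h and 40 from 12 to 24 h. Of the 564 lower genes the numbers were 306, 239 and 19. These numbers depend in part on how the genes were picked. Late arrays without overlap require a step in the same direction from 8 to 12 h, and a gene that stands apart only at 24 h is passed over. From 12 to 24 h, between 2 arrays of similar brightness, 73 genes (0.68%) were higher and 51 (0.475%) lower by at least 0.5.

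Genes with more than 1 kept probe allow a check within the array. Over 2780 such genes, the late minus early difference of the brightest probe and of the next brightest had a Pearson correlation of 0.298 across genes, and 59.1% had the same sign. Where the brightest probe was separated by at least 0.5, the second had the same sign in 218 of 341 genes (63.9%), with a median of 0.103 in that direction against 0.626. For the step from 12 to 24 h the correlation was 0.518, and 30 of 32 genes with a step of at least 0.5 had the same sign on the second probe, with a median of 0.333 against 0.581. The points share probes of 1 array set and genes are not independent replicates. Second-probe values are given below for many of the genes that have them, and a gene given without one can still have a second probe.

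**Figure D2:**
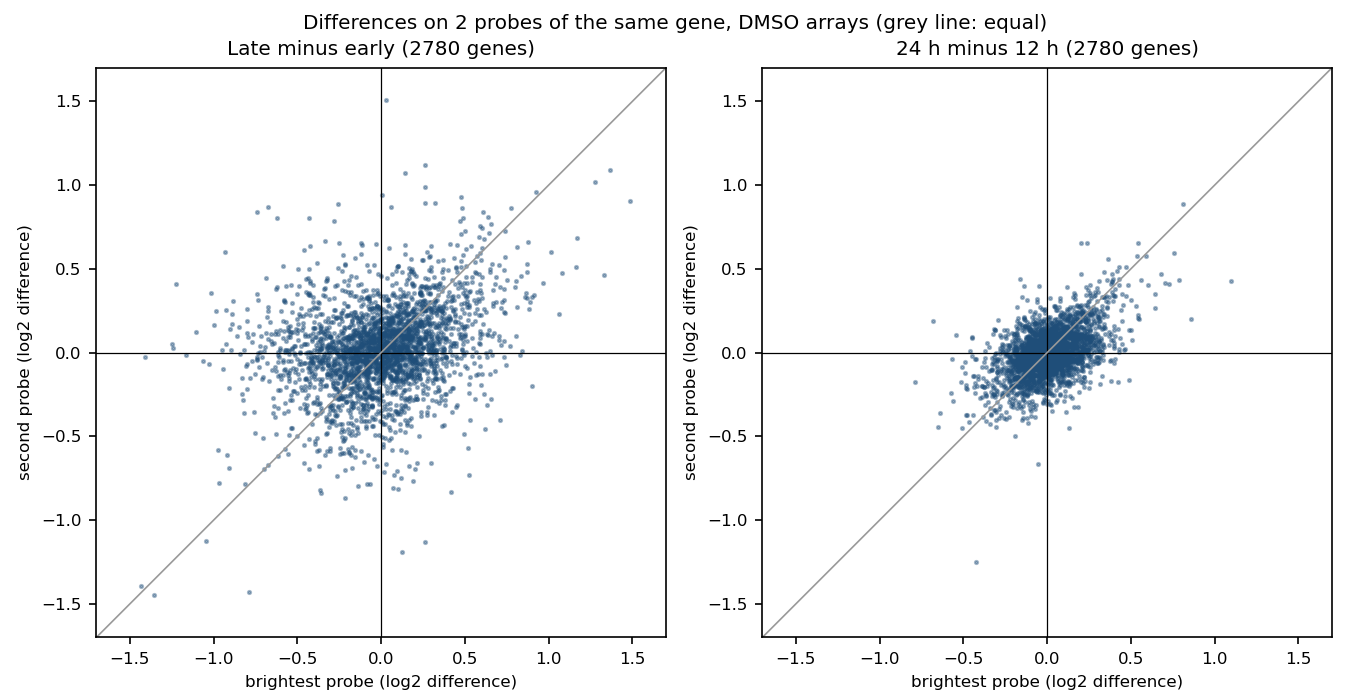
Each point is 1 of 2780 genes with at least 2 kept probes, with the log2 difference of the brightest probe on the horizontal axis and that of the second probe on the vertical axis, for late minus early (left) and 24 h minus 12 h (right). The left cloud is wide with a correlation of 0.298 and the right one is narrower along the diagonal with 0.518.

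Hypoxia-responsive genes stood higher on the late arrays, most of all at 24 h. Of 28 genes on the list 25 were measured, their median difference was 0.368, and 21 of 25 were above 0. With no overlap and a difference of at least 0.5, 9 of them were higher late and 0 lower, beside 4.81% and 5.25% of all genes. None passed the test. From 12 to 24 h all 25 were higher, 15 of them by at least 0.3 (3.71% of all genes), with a median step of 0.447, and from 4 to 8 h the median step was -0.0193. Over all 10735 genes the median of the last step was -0.00111, with 5303 higher and 5413 lower at 24 h than at 12 h. Against 8 h alone 10 of 25 were higher by at least 0.5 without overlap, beside 2.25% of all genes.

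PFKFB4 and PFKFB3 encode the bifunctional enzymes that make and degrade the sugar phosphate which activates glycolysis. PFKFB4 had values of 9.04, 7.98, 9.14 and 10.81, a difference of 1.47 ± 0.61, and its lowest value was that of the 8 h array. PFKFB3 had 8.90, 9.33, 9.92 and 10.65, a difference of 1.17 ± 0.27, with 0.68 on its second probe. Both late arrays exceeded both early ones for each gene. ADM, which encodes the secreted peptide adrenomedullin, had values of 8.18, 8.28, 9.02 and 10.34 and a difference of 1.45 ± 0.41. It was nearly level at 4 and 8 h and highest at 24 h. ANKRD37, an ankyrin repeat protein known as a HIF target, had 8.67, 9.27, 9.99 and 10.72 and a difference of 1.39 ± 0.30. Each later array was higher, and it was 1 of the 5 genes (0.0466% of all) that passed when a slope on log2 hours was fitted in place of early and late (0.82 per doubling of time, limma adjusted p = 0.0452).

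Genes of mitochondrial removal and of growth restraint are on the list too. BNIP3, an outer membrane protein that directs mitochondria to autophagy, had values of 9.93, 9.98, 10.55 and 11.30 and a difference of 0.98 ± 0.25. Its relative BNIP3L had 8.80, 8.05, 8.52 and 9.62, so the 12 h array lay below the 4 h array and only the 24 h array stood above all others, and its second probe had a late minus early difference of 0.01. DDIT4, an inhibitor of mTORC1 signalling, had 9.68, 9.34, 9.96 and 11.14 and a difference of 1.04 ± 0.38, with the highest value at 24 h. INSIG2, which retains the SREBP escort protein in the endoplasmic reticulum, had 8.47, 8.41, 8.88 and 9.61 and a difference of 0.81 ± 0.24. The glucose transporters SLC2A3 and SLC2A1 had differences of 0.67 ± 0.22 and 0.39 ± 0.14, each with both late arrays above both early ones. MXI1, a MYC antagonist, and KDM3A, a histone demethylase, had 0.53 ± 0.18 and 0.48 ± 0.17. EGLN1, the prolyl hydroxylase that marks HIF for destruction, was not above background on either early array, so it has only a bound there and was at least 1.2-fold higher late (measured difference 0.37 ± 0.12).

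Not every member was high late. VEGFA, which encodes the angiogenic growth factor, had 7.33, 7.40, 7.43 and 7.69 and a difference of 0.19 ± 0.12, and PDK1, which restrains entry of pyruvate into mitochondria, had 0.18 ± 0.12, with 1 of its 2 early arrays above background. FAM162A had the opposite order, with 9.64, 8.42, 8.23 and 8.57 and a difference of -0.64 ± 0.40, nearly all of it between the 4 h array and the rest. CITED2, which competes with HIF for its coactivator, was not on the list but was among the 12 genes with the largest positive differences, with 8.40, 8.73, 9.80 and 9.85 and a difference of 1.26 ± 0.14.

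Promoters of 2 members are printed to show the HIF core in members high at 24 h, as the 250 bases before the start of the gene in RefSeq's GRCh38.p14 table, with each ACGTG on either strand in capitals and overlapping matches run together. ANKRD37 lies at chr4:185396591-185396840 on the plus strand, with 3 matches between 143 and 162 bases before the start, of which a pair overlap in CACGTG. BNIP3 lies at chr10:131981924-131982173 on the minus strand, with 2 matches in 1 CACGTG.
ANKRD37: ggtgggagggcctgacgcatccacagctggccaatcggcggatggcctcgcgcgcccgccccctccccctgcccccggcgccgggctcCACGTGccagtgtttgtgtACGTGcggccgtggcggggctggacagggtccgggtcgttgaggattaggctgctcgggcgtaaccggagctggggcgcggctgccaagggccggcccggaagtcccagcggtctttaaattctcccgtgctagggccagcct
BNIP3: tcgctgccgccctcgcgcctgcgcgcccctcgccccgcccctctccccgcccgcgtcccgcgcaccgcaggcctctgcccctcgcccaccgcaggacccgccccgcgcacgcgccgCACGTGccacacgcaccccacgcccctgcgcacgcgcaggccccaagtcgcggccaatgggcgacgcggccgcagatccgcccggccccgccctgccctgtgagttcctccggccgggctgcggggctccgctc
Of the measured members 19 had a promoter in the table, and 11 of them (57.9%) held the motif, against 18.7% of all 27305 promoters of that length and 23.9% of the 8638 promoters of tested genes. Among the members separated by at least 0.5 it was 4 of 8, and PFKFB4, ADM, PFKFB3 and MXI1 had no match in this window. A match is a run of letters and not a shown binding site.

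**Figure D3:**
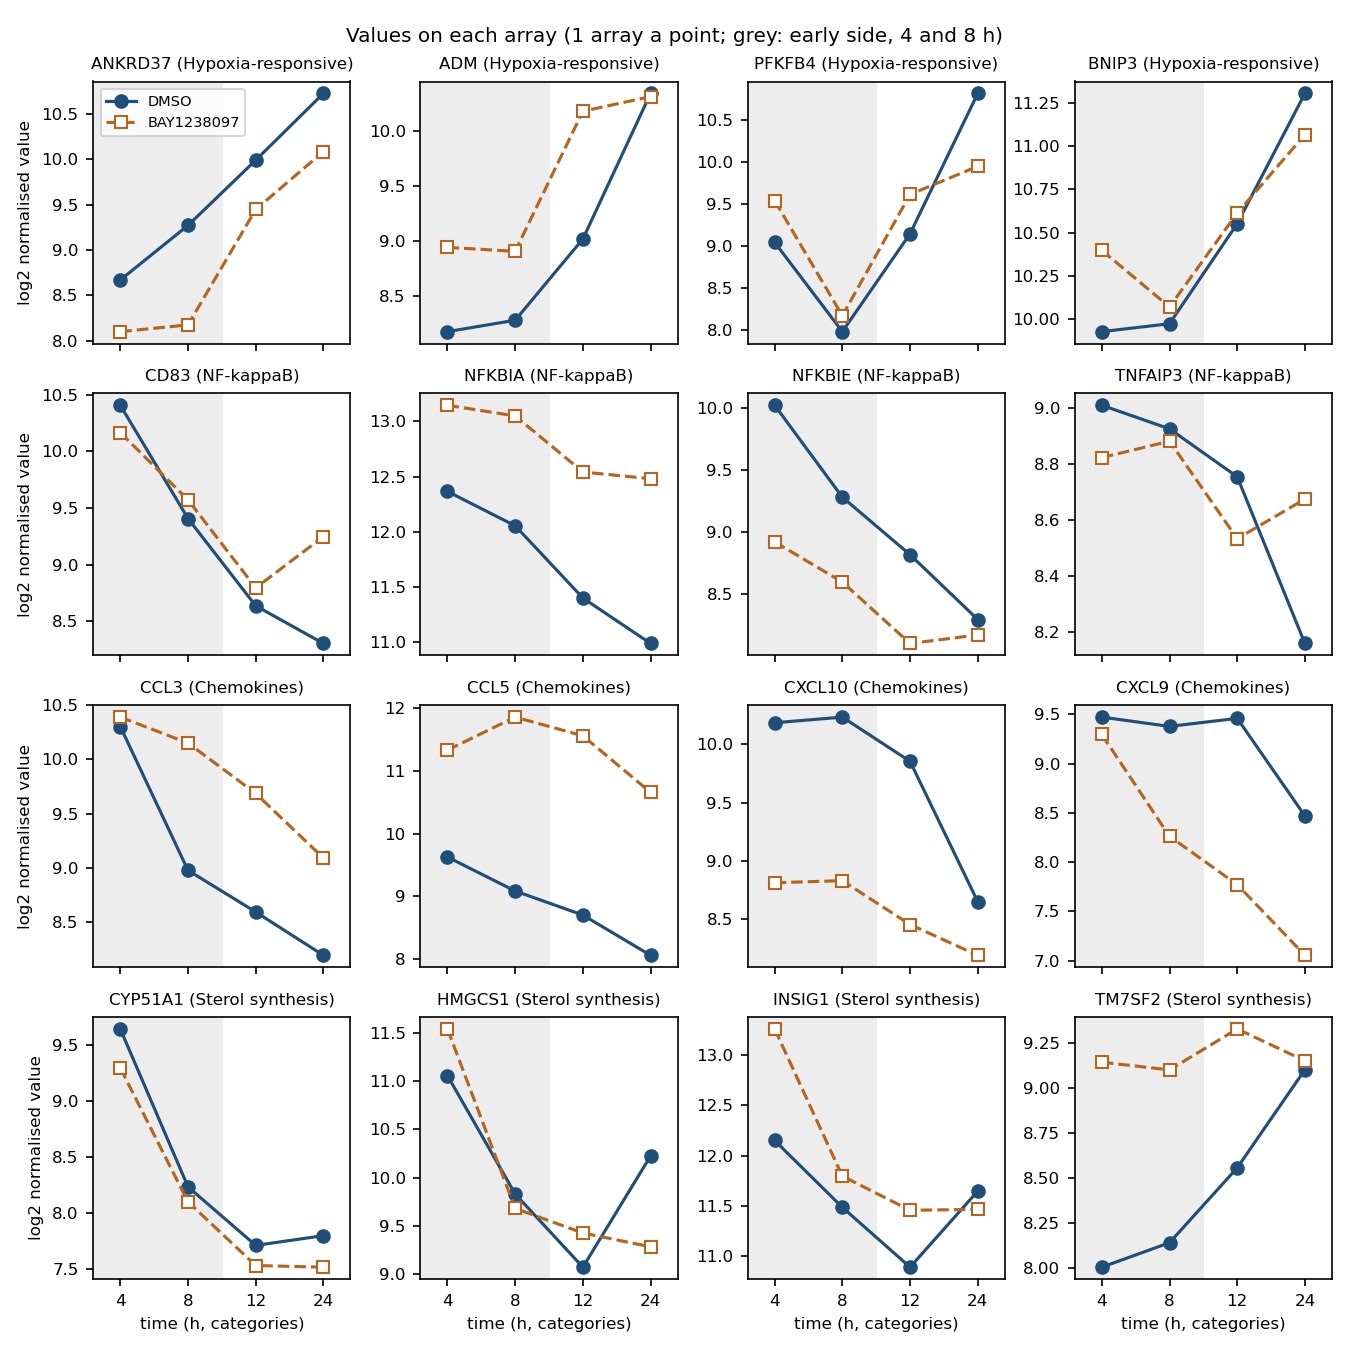
Log2 normalised values (vertical axes, which differ by panel) at 4, 8, 12 and 24 h (horizontal axis, spaced as categories) for 16 genes, 1 array a point, with DMSO as filled circles and BAY1238097 as open squares. In DMSO ADM is nearly level at 8.18 and 8.28 on the early side and reaches 10.34 at 24 h, NFKBIA goes from 12.37 to 10.99, and HMGCS1 is lowest at 12 h with 9.07 and is 10.22 at 24 h.

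The enzymes of glycolysis, which overlap in part with known HIF targets, had a median difference of 0.499 over 17 measured enzymes. Of these 15 were above 0, 8 were higher late by at least 0.5 without overlap and 0 lower, beside 4.81% and 5.25% of all genes. Against 8 h alone 4 were higher by that much, beside 2.25% of all genes. ALDOA, the aldolase, had 10.67, 10.94, 11.52 and 11.72, a difference of 0.81 ± 0.14 and 0.63 on its second probe. PGAM1, the phosphoglycerate mutase, had 10.92, 11.01, 11.45 and 11.76, a difference of 0.64 ± 0.13 and 0.81 on the second probe. PKM, pyruvate kinase, had 9.66, 9.98, 10.38 and 10.59, a difference of 0.66 ± 0.15 and 0.53. For ALDOA, PGAM1 and PKM both probes had the same sign and each later array was higher. HK1, the hexokinase, had 10.25, 10.87, 11.19 and 11.22 and a difference of 0.64 ± 0.21, with its largest step from 4 to 8 h. TPI1 and GAPDH had 0.63 ± 0.16 and 0.50 ± 0.14, with 0.24 and 0.72 on their second probes. Second probes did not match for every enzyme. HK2, also higher late by at least 0.5 without overlap, had 0.62 ± 0.19 but -0.0022 on its second probe. PGK1 had 0.12 ± 0.15 and -0.34. LDHA, which makes lactate, had only 0.10 ± 0.12. ALDOC, a second aldolase, ran the other way until 12 h, with 11.56, 11.08, 10.26 and 11.11 and a difference of -0.63 ± 0.31.

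In BAY1238097 the hypoxia list had a median difference of 0.487 late against early and glycolysis 0.144, beside 0.368 and 0.499 in vehicle. ADM differed by 1.32 there, ANKRD37 by 1.63, DDIT4 by 1.04 and CITED2 by 1.42, beside 1.45, 1.39, 1.04 and 1.26 in vehicle. PFKFB4 differed by 0.93 and BNIP3 by 0.60, beside 1.47 and 0.98, and CITED2 is not on the list. The last step was smaller in BAY1238097, where the list's median was 0.208 and 21 of 25 were higher at 24 h. The difference between the treatments in that step was not tested.

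NF-kappaB subunits, inhibitors and targets were lower late as a group. Of 24 measured genes 20 were below 0, the median difference was -0.295, and 9 were lower by at least 0.5 without overlap, 0 higher, where 5.25% of all genes were lower. Against 8 h alone 8 of 24 were lower by that much, beside 2.23% of all genes. From 12 to 24 h 21 of 24 were lower, 11 of them by at least 0.3 (2.91% of all genes), with a median of -0.262. None passed the test of late against early.

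The feedback inhibitors are given first. NFKBIA, the inhibitor that retains NF-kappaB in the cytoplasm, had 12.37, 12.06, 11.40 and 10.99 and a difference of -1.02 ± 0.18. NFKBIE, a related inhibitor, had 10.02, 9.28, 8.82 and 8.30 and a difference of -1.09 ± 0.29, and it passed with a slope on log2 hours (-0.67 per doubling, limma adjusted p = 0.0452). TNFAIP3, the ubiquitin-editing enzyme that ends NF-kappaB signalling, had 9.01, 8.93, 8.75 and 8.16 and a difference of -0.51 ± 0.20, most of it at 24 h. All 3 were lower at each later time. The subunits themselves did not share one direction. RELA had a difference of 0.41 ± 0.13, NFKB2 0.27 ± 0.17, RELB -0.01 ± 0.12, NFKB1 -0.20 ± 0.12 and REL -0.36 ± 0.13.

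Targets and receptors on the list follow. CD83, an activation marker of B cells, had 10.41, 9.41, 8.64 and 8.30, a difference of -1.44 ± 0.33 and -1.40 on its second probe. CD40, the receptor for T cell help, had 8.21, 8.15, 7.46 and 7.27, a difference of -0.81 ± 0.11 and -0.78 on its second probe. For both genes the late arrays lay below the early ones on the brightest probe, and the second probe had the same sign. CFLAR, which restrains caspase activation by death receptors, had 10.46, 9.93, 9.48 and 9.17 and a difference of -0.87 ± 0.21. TNFAIP2 had 8.75, 8.58, 8.02 and 7.37 and a difference of -0.97 ± 0.22, and TRAF1, an adaptor of TNF receptors, had -0.62 ± 0.19 with -0.02 on its second probe. EBI3, a cytokine subunit, had 8.20, 8.45, 8.76 and 7.74, which was highest at 12 h and lowest at 24 h.

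Promoters of 2 members are printed in the same way, with each NF-kappaB motif on either strand in capitals, written as GGG, any 3 bases and TTCC. NFKBIA lies at chr14:35404750-35404999 on the minus strand with 1 match 81 bases before the start. TNFAIP3 lies at chr6:137867009-137867258 on the plus strand with 2 matches 67 and 55 bases before it.
NFKBIA: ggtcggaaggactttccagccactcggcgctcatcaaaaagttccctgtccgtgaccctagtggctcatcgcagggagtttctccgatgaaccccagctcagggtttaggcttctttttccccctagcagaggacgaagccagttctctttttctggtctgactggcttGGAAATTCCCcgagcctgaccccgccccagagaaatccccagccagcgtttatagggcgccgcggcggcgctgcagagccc
TNFAIP3: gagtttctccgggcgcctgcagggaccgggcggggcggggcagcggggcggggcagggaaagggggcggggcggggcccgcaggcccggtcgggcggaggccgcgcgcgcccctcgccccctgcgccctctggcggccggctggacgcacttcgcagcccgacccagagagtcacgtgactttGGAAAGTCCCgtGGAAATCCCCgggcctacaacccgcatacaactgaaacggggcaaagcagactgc
The motif stood in 7 of 19 promoters of measured members (36.8%), against 5.61% of all promoters and 6.36% of those of tested genes, and in 3 of 7 of the members lower by at least 0.5. CCL3, CD83, TRAF1 and TNFAIP2 had no match in this window.

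Chemokines held the largest negative differences of all genes, in CCL4L1 and CCL3L3. CCL3 had 10.30, 8.98, 8.59 and 8.19 and a difference of -1.25 ± 0.43. Its near-identical copies CCL3L3 and CCL3L1 had 10.93, 9.49, 8.74 and 8.39 and 10.01, 8.58, 8.13 and 7.74, with differences of -1.65 ± 0.46 and -1.36 ± 0.47, and CCL4L1, a copy of CCL4, had 9.50, 7.95, 7.07 and 6.91 and -1.73 ± 0.49. Probes of such copies can bind each other's transcripts, so these are not separate results. In each of them the step from 4 to 8 h was the largest, and the 8 h array still lay above both late arrays. CCL5, a chemokine for T cells, had 9.62, 9.08, 8.70 and 8.06, a difference of -0.98 ± 0.27 and -0.58 on its second probe, and it passed with the slope on log2 hours (-0.61 per doubling, limma adjusted p = 0.0452). CXCL10 and CXCL9, which attract T cells and answer to interferon, had another course. CXCL10 had 10.19, 10.24, 9.85 and 8.65 and CXCL9 had 9.47, 9.38, 9.46 and 8.47, so for both the first 3 arrays lay within 0.5 of each other and 24 h was the lowest.

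The list of migration receptors and chemokines held 14 measured genes with a median of -0.324, of which 5 were lower and 2 higher by at least 0.5 without overlap, beside 5.25% and 4.81% of all genes. GPR183, the oxysterol receptor that positions B cells at follicle borders, had 12.62, 12.37, 11.96 and 11.63, a difference of -0.70 ± 0.15 and -0.69 on its second probe. S1PR1, a receptor for egress from lymphoid tissue, had -0.52 ± 0.09 but 0.00 on its second probe. The higher members were CXCR4, the receptor of the germinal centre dark zone, with 9.52, 9.76, 10.08 and 10.31, a difference of 0.56 ± 0.13 and 0.54 on its second probe, and S1PR4 with 0.70 ± 0.17. Receptors thus differed among themselves, whereas the 6 chemokines of the list were all below 0. CCL3 and CCR7 stand on this list and on the NF-kappaB list.

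In BAY1238097 the NF-kappaB list had a median difference of -0.212 and the chemokine list -0.329, beside -0.295 and -0.324 in vehicle. From 12 to 24 h the NF-kappaB median was -0.0221 there, with 13 of 24 lower. NFKBIA differed by -0.59 late against early, NFKBIE by -0.62, CD83 by -0.85 and CFLAR by 0.16 in BAY1238097. CFLAR thus had the opposite sign to vehicle, and no gene passed the test of the difference between the treatments.

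The sterol synthesis list had negative median steps up to 12 h and a positive one from 12 to 24 h. Of 19 measured genes 13 were below 0, the median difference was -0.25, and 3 were lower and 1 higher by at least 0.5 without overlap, beside 5.25% and 4.81% of all genes. The median step was -0.348 from 4 to 8 h and -0.122 from 8 to 12 h, and it was 0.177 from 12 to 24 h, when 16 of 19 were higher, 7 of them by at least 0.3 (3.71% of all genes). Against 8 h alone the list median was -0.036 and 0 members were lower by at least 0.5, beside 2.23% of all genes. The part of the dimmer 4 h array in the early to late difference was not tested.

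HMGCS1, which makes the precursor of mevalonate, had 11.06, 9.83, 9.07 and 10.22 and a difference of -0.79 ± 0.52. INSIG1, the sterol-regulated brake on SREBP, had 12.15, 11.49, 10.89 and 11.65, a difference of -0.55 ± 0.32 and -0.17 on its second probe. Each had its lowest value at 12 h and stood higher at 24 h than at 12 h. CYP51A1, the lanosterol demethylase, had 9.64, 8.23, 7.71 and 7.80 and a difference of -1.18 ± 0.44, with little difference between 12 and 24 h. FDPS and NSDHL had -0.66 ± 0.19 and -0.60 ± 0.18. Of the 6 members above 0, TM7SF2, a sterol reductase, was the one separated by at least 0.5, with 8.00, 8.14, 8.56 and 9.10 and a difference of 0.76 ± 0.19. In BAY1238097 the list median was -0.318, and 15 of 19 members were lower at 24 h than at 12 h, with a median step of -0.143. HMGCS1 had a step of 1.15 in vehicle and -0.14 in BAY1238097. That contrast in the last step was not tested.

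Fatty acid synthesis genes had a median of -0.155 over 10 measured, with 7 below 0. FASN, the fatty acid synthase, had 11.83, 11.92, 11.41 and 11.57 and a difference of -0.38 ± 0.10, ACLY, which makes cytosolic acetyl-CoA, had -0.41 ± 0.16 with 0.08 on its second probe, and SREBF1 had 0.54 ± 0.15 with 0.09. FADS1, a fatty acid desaturase, was higher at 24 h than at 12 h, with 9.46, 9.18, 9.24 and 10.10.

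**Figure D4:**
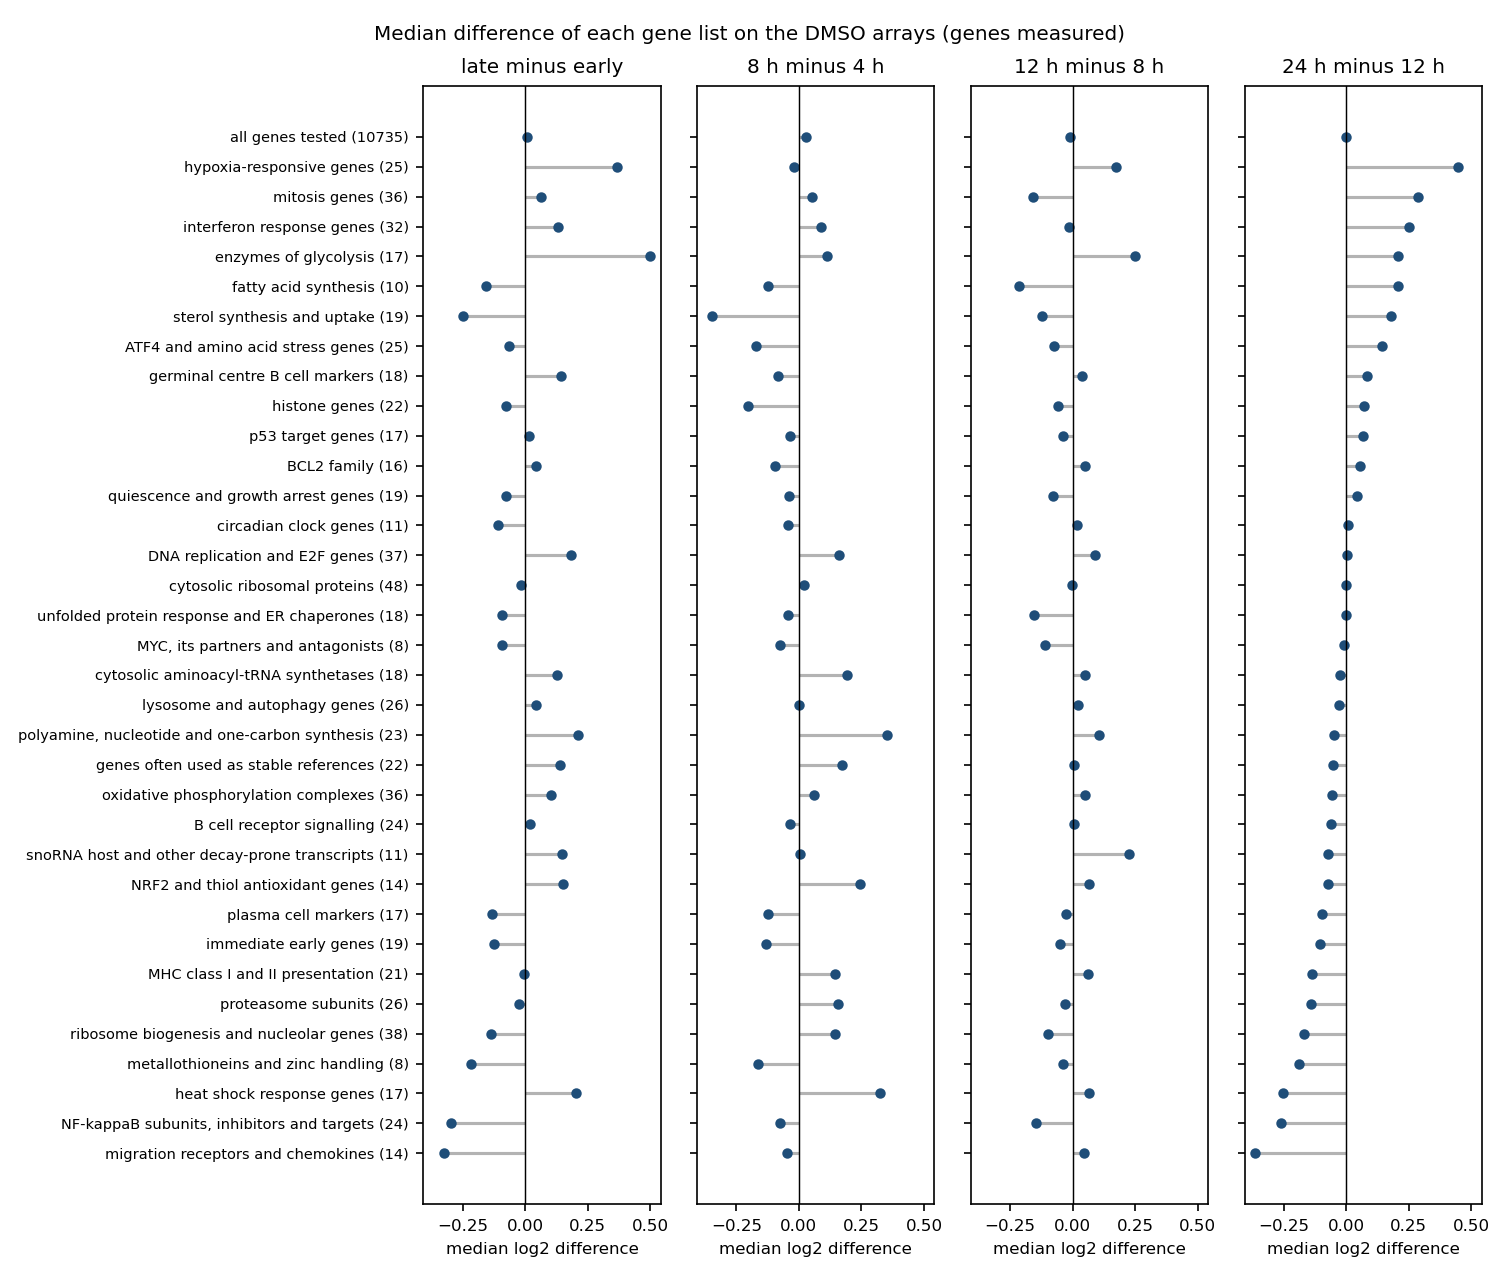
Median log2 difference (horizontal axes) of each of 34 gene lists and of all genes tested on the vehicle arrays, for late minus early and for each step between neighbouring times, ordered by the last step, with the number of measured genes in brackets. Hypoxia-responsive genes have the largest median at 24 h minus 12 h (0.447) and migration receptors and chemokines the smallest (-0.364), and the signs of the proteasome and MHC lists against all genes turn when arrays are scaled to their median.

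Most interferon response genes were higher at 24 h than at 12 h. Of 32 measured 26 were higher, 15 by at least 0.3 (3.71% of all genes), with a median step of 0.251. The median late minus early was 0.132, and 9 genes were higher and 2 lower by at least 0.5 without overlap, beside 4.81% and 5.25% of all genes. These counts were 5 and 1 against 8 h alone, beside 2.25% and 2.23% of all genes. IFI44L had 9.53, 9.75, 10.12 and 10.76, a difference of 0.80 ± 0.23 and 0.39 on its second probe. IFITM1, a membrane protein that restricts virus entry, had 10.13, 9.79, 10.38 and 11.01 and a difference of 0.74 ± 0.23. IRF9, the DNA-binding part of the interferon-stimulated complex, had 9.26, 9.65, 10.07 and 10.09 and a difference of 0.63 ± 0.15. ISG15, a ubiquitin-like modifier, had 9.35, 8.95, 8.98 and 9.82 and so stood out only at 24 h. ISG20 and IFI27 ran the other way, with -0.86 ± 0.31 and -0.73 ± 0.15. In BAY1238097 the same 12 to 24 h step had a median of 0.266 and 26 of 32 were higher. The interferon-inducible chemokines CXCL9 and CXCL10, given above, were lower at 24 h and did not follow this list.

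The replication and E2F list had a median of 0.184 over 37 measured genes, with 9 higher and 1 lower by at least 0.5 without overlap, beside 4.81% and 5.25% of all genes. The counts were 5 and 0 against 8 h alone, beside 2.25% and 2.23% of all genes. POLD2, a subunit of DNA polymerase delta, had 9.37, 9.60, 10.21 and 10.24, a difference of 0.74 ± 0.11 and 0.57 on its second probe. TYMS, thymidylate synthase, had 10.59, 10.77, 11.33 and 11.35 and a difference of 0.66 ± 0.10. UNG, which removes uracil from DNA, had 9.26, 10.19, 10.80 and 10.48, a difference of 0.91 ± 0.32 and 0.35 on its second probe. For POLD2 and TYMS the arrays of each side lay within 0.3 of each other. CDT1, which licenses origins, had 9.82, 9.40, 8.96 and 9.16 and a difference of -0.55 ± 0.17. ASF1B, a histone chaperone of replication, was not on the list and had 7.88, 8.41, 9.43 and 9.42 and a difference of 1.28 ± 0.19.

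The mitosis list had a late minus early median of 0.0631 over 36 genes, and its course was seen in the steps. The median was -0.16 from 8 to 12 h and 0.287 from 12 to 24 h, when 34 of 36 were higher, 16 by at least 0.3 (3.71% of all genes). HMMR, a spindle protein, had 9.42, 9.92, 9.97 and 10.50, a difference of 0.57 ± 0.24 and -0.13 on its second probe. BUB1, a kinase of the spindle checkpoint, had 9.34, 9.64, 9.72 and 10.25 and a difference of 0.50 ± 0.21. BIRC5, survivin, had 9.87, 9.91, 9.35 and 9.50, a difference of -0.47 ± 0.10 and 0.16 on its second probe. CCNB2 and AURKA had steps of 0.57 and 0.54 from 12 to 24 h. In BAY1238097 the replication list had a median of -0.253 late against early and all 37 were lower at 24 h than at 12 h, and the mitosis list had a last step of -0.128 with 29 of 36 lower. Per gene, the test of the difference between the treatments called 0 of 10735 genes (limma, smallest adjusted p 0.496, 1029 at an unadjusted p under 0.05).

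MYC, whose product drives growth genes, is known to be affected by BET inhibitors in many lymphomas. On its brightest probe it was nearly level in vehicle. Its values were 11.61, 11.54, 11.63 and 11.73, with a difference of 0.10 ± 0.09, and its second probe gave -0.81. The probes thus differ in sign, so no direction can be given for MYC. MXD4, an antagonist of MYC at its binding sites, had 9.55, 8.69, 8.23 and 8.19 and a difference of -0.91 ± 0.28, and MAX, its partner, had -0.44 ± 0.11 with -0.36 on its second probe. Ribosome biogenesis genes, many of which are MYC targets, had a median of -0.136 over 38, with 4 lower and 0 higher by at least 0.5 without overlap, beside 5.25% and 4.81% of all genes. Relative to all genes that median was -0.142, and -0.0444 with median scaling. At 24 h 34 of 38 were lower than at 12 h (median -0.169). PNO1, a factor of small subunit assembly, had 9.35, 8.72, 8.36 and 7.96 and a difference of -0.87 ± 0.24, and PES1, of the large subunit, had 9.48, 8.79, 8.29 and 8.31 and -0.84 ± 0.23. NOP2, a ribosomal RNA methyltransferase, had -0.84 ± 0.15 but -0.01 on its second probe. Cytosolic ribosomal proteins had a median of -0.0169 over 48.

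B cell identity genes gave a mixed picture. In the B cell receptor list of 24 genes the median was 0.0199, with 2 higher and 2 lower by at least 0.5 without overlap, beside 4.81% and 5.25% of all genes. BLK and SYK, kinases of the receptor, had 8.15, 7.88, 8.78 and 8.82 and 9.30, 9.66, 10.10 and 9.96, with differences of 0.79 ± 0.12 and 0.55 ± 0.15. CD79B, a signalling chain of the receptor, had 11.64, 11.07, 10.76 and 10.67, a difference of -0.64 ± 0.20 and -0.36 on its second probe. CD79A had -0.62 ± 0.09 on its brightest probe and 0.81 on its second, so no direction can be given for it. Germinal centre markers had a median of 0.142 over 18. MME, the surface enzyme CD10, had 8.02, 7.87, 8.13 and 8.78 and a difference of 0.51 ± 0.22, highest at 24 h.

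Plasma cell markers had a median of -0.131 over 17, with 5 lower and 0 higher by at least 0.5 without overlap, beside 5.25% and 4.81% of all genes. With 8 h alone as the early side 1 was lower and 1 higher, beside 2.23% and 2.25% of all genes. Relative to all genes the median was -0.137, and -0.0234 with median scaling. PRDM1, the master regulator of plasma cells, had 10.80, 10.39, 10.03 and 9.74, a difference of -0.71 ± 0.18 and -0.03 on its second probe. TENT5C, a poly(A) polymerase active on immunoglobulin transcripts, had 10.38, 9.86, 9.58 and 9.18 and a difference of -0.74 ± 0.22. IRF4, a transcription factor of activated B cells and plasma cells, had 10.67, 10.19, 9.99 and 9.71 and a difference of -0.58 ± 0.19, and SDC1, the surface proteoglycan CD138, had 11.67, 11.001, 10.60 and 10.85 and -0.61 ± 0.24. Each was lower at 8 h than at 4 h and lower again at 12 h. XBP1 had 0.07 ± 0.09 and JCHAIN -0.08 ± 0.10. Antigen presentation genes had a median of -0.0058 over 21, with CD74, the invariant chain, at 0.64 ± 0.15 and 0.72 on its second probe. HLA-DMB, which helps load peptides on class II, had 10.88, 10.14, 9.83 and 9.21 and a difference of -0.99 ± 0.31, and it passed with the slope on log2 hours (-0.64 per doubling, limma adjusted p = 0.0452).

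Several genes of acute stress were highest at 4 h, but the lists that hold them were mixed. Immediate early genes had a median of -0.123 over 19, of which 8 were above 0. By at least 0.5 without overlap 4 were lower and 0 higher, beside 5.25% and 4.81% of all genes. PPP1R15A, which reverses the translation block of the stress response, had 9.89, 8.57, 7.92 and 7.99 and a difference of -1.28 ± 0.42. JUN and EGR1, transcription factors induced within minutes of a stimulus, had 7.90, 7.21, 6.87 and 6.71 and 8.04, 7.31, 7.02 and 6.98, with differences of -0.77 ± 0.24 and -0.67 ± 0.24, and JUN was above background on 1 of its 2 late arrays. CD69, an early activation marker, had 10.79, 9.91, 9.49 and 9.64, a difference of -0.79 ± 0.29 and -1.43 on its second probe. In each of these the 4 h array was above the other 3 by more than 0.5. Against 8 h alone 1 member of the immediate early list was lower by at least 0.5, beside 2.23% of all genes. ATF5, of the amino acid response, had 10.02, 9.41, 8.79 and 8.5 and a difference of -1.07 ± 0.22. The amino acid stress list had a median of -0.066 over 25, with 10 above 0. HSPA5, the main chaperone of the endoplasmic reticulum, had 9.46, 8.56, 8.20 and 8.09 and a difference of -0.87 ± 0.29. The list of endoplasmic reticulum stress genes had a median of -0.0928 over 18, with 7 above 0.

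The remaining genes among the 12 largest in each direction belong to no single list. S100A4, a calcium-binding protein, had the largest positive difference, with 8.45, 8.46, 9.53 and 10.34, a difference of 1.48 ± 0.26 and 0.90 on its second probe. UBA1, the ubiquitin-activating enzyme, had 8.76, 9.80, 10.65 and 10.64, a difference of 1.36 ± 0.33 and 1.09 on its second probe, and COPE, a coatomer subunit, had 8.46, 9.61, 10.39 and 10.24, 1.28 ± 0.37 and 1.02. The second probes agreed in sign for these 3 genes. SMARCC2, of the BAF chromatin remodelling complex, had a difference of 1.33 ± 0.22 and 0.46 on its second probe. EIF5A, a translation factor with a near-identical retrogene, had 9.70, 10.66, 11.73 and 11.43 and a difference of 1.40 ± 0.32, and TERF2IP, a telomere protein, had 8.05, 8.41, 9.48 and 9.48 and 1.25 ± 0.14.

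On the negative side 4 of the 6 genes with a second probe were not matched by it. SIL1, a nucleotide exchange factor of HSPA5, had a difference of -1.41 ± 0.25 but -0.03 on its second probe. DHX37, an RNA helicase, had -1.25 ± 0.19 and 0.05, MTMR14, a phosphoinositide phosphatase, had -1.24 ± 0.24 and 0.03, and DPP7, a dipeptidyl peptidase, had -1.22 ± 0.26 and 0.41. These 4 differences rest on 1 probe each. ATP13A1, a transporter of the endoplasmic reticulum, had 10.04, 9.0, 8.25 and 8.32 and a difference of -1.23 ± 0.33, with 1 kept probe.

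The same late against early contrast in BAY1238097 shares no array with the vehicle contrast. There 0 of 10735 genes passed (percent called 0; limma, smallest adjusted p 0.251, 1791 at an unadjusted p under 0.05), and 398 genes (3.71%) were higher and 464 (4.32%) lower by at least 0.5 without overlap. Of the 516 vehicle genes higher late, 471 were above 0 in BAY1238097, where 50.1% of all genes were, and their median was 0.394 against 0.622 in vehicle. Of the 564 lower genes 529 were below 0 (49.9% of all genes), with a median of -0.469 against -0.658. Shared genes were 172 higher (33.3% of the vehicle list, 43.2% of the BAY1238097 list) and 254 lower (45% and 54.7%). The BAY1238097 array of 4 h was the dimmest of its group as well, so brightness moves with the sides in both treatments. For the step from 12 to 24 h, 53 of the 73 higher and 40 of the 51 lower vehicle genes had the same sign in BAY1238097, where 50.4% and 49.5% of all genes did, with medians of 0.208 and -0.265 against 0.601 and -0.595.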

How the data were processed

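The deposited intensity table holds 1 linear intensity for each of 47231 probes on each of the 8 arrays, and per its values it is neither normalised nor background-subtracted; its 10 further unnamed columns hold no value and were not used. The deposited table of values holds log2 numbers that match the log2 intensities after quantile normalization to within 0.00126, so it carries no background correction; further steps of the authors are not given in the sources used here. Probe genes came from the platform annotation (30113 probes with 1 symbol, 8 with several and 17110 with none, the last 2 kinds left unnamed), and 0 symbols needed an update.

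In the absence of detection p-values in the files used here, a probe was kept when its mean over the 4 DMSO arrays exceeded the 95th percentile of 437 olfactory receptor probes (6.745). Of 19375 kept probes 14261 had 1 symbol, and the brightest kept probe stood for each of 10735 genes. Late (12 and 24 h) was compared with early (4 and 8 h) by lmFit and eBayes in limma 3.58.1 (R 4.3.3), with Benjamini-Hochberg adjustment over all genes at 0.05. The difference between the treatments' late against early contrasts used all 8 arrays with the time point as a block. The fits were tested on simulated data in which known differences had been set, and the outcome is not given here. Noise in those data was independent for each gene and array, so they do not cover a dimmer array or a change within a side. Figures were drawn with matplotlib 3.10.9 in Python 3.11.15.

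The named genes were the 12 largest differences each way among genes whose late and early arrays did not overlap (0 passed the threshold), up to 4 members with the largest absolute difference from each of 34 lists, and MYC. Other genes named from the lists or for their step from 12 to 24 h, the limits of 0.5 and 0.3, the motifs and the counts of genes without overlap were chosen after values were seen. The comparison and the lists were chosen with earlier results of these data known. The number of arrays, 2 a side, limits the precision.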

Additional observations from a re-analysis of the deposited data

How the results depend on the processing

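The count of 0 genes called late against early in vehicle, with a smallest adjusted p of 0.137, was 0 under every setting run except the 2 that follow, with smallest adjusted p-values from 0.0562 to 0.602. A slope on log2 hours called 5 genes, which were HLA-DMB, ANKRD37, NFKBIE, CCL5 and TSPAN33. Leaving out each array in turn gave 0 to 2554 calls, all 2554 (1289 higher, 1265 lower) from the setting without the 8 h array, in which the dimmer 4 h array alone stood for the early side. In BAY1238097 leaving out each array gave 0 to 366 calls, the 366 again without its 8 h array. For the difference between the treatments the range was 0 to 63, the 63 without both 8 h arrays, and without the time point as a replicate block the count was 0 with a smallest adjusted p of 0.917. No paired analysis was possible for late against early because the sides of a treatment hold different times and the replicate numbers only name arrays.

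The counts of genes separated by at least 0.5, 516 higher and 564 lower, moved to 2062 and 129 with median scaling and to 3060 and 115 with normexp and median scaling. They ranged from 242 to 1029 higher and from 239 to 1043 lower when each array was left out, lowest without the 4 h array and highest without the 8 h array. Other settings, normexp with quantile normalization (684 and 692) and the mean of the kept probes (424 and 415) among them, stayed within 1.5 times. These settings for the counts were added after seeing the data.

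Of 1663 values of the 111 genes given with a difference, 1574 kept sign and side of the threshold, 80 newly passed it and 9 turned sign. With the mean of the kept probes CD79A turned to 0.16 and MYC to -0.36. With median scaling NFKB1 turned to 0.0928 and RELB to 0.21, and with normexp and median scaling NFKB1 to 0.18, RELB to 0.30 and FASN to 0.0088. Without the 4 h array LDHA turned to -0.0072, and RELB ranged from -0.1411 without the 12 h array to 0.1172 without the 24 h array. Relative to all genes, hypoxia moved from 0.362 to 0.449 with median scaling, NF-kappaB from -0.302 to -0.289 and sterol synthesis from -0.256 to -0.111, fatty acid synthesis from -0.161 to -0.0348, interferon from 0.126 to 0.242, replication from 0.178 to 0.286 and mitosis from 0.0568 to 0.179, while the proteasome list turned from -0.0325 to 0.0792 and the MHC list from -0.012 to 0.0874. The p53 list turned to -0.0864 with the mean of the kept probes. The cause of these moves was not tested.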

Other observations

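Groups that the text has not yet described also had a course in vehicle. Of the metallothioneins, which bind zinc and copper, the 3 brightest were lowest at 24 h. MT2A had 9.65, 9.47, 9.63 and 8.55, MT1F 8.82, 8.72, 8.46 and 7.66 and MT1X 9.67, 9.29, 8.97 and 8.28, and the differences of the last 2 between late and early were -0.71 ± 0.26 and -0.85 ± 0.26. These genes are close copies whose probes can bind each other's transcripts. In BAY1238097 their 24 h minus 12 h steps were -1.06, -0.87 and -1.42.

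Heat shock response genes had a median step of 0.325 to 8 h over 17 genes and of -0.255 from 12 to 24 h, when 14 of 17 were lower. HSPH1, a chaperone of the HSP110 family, had 10.24, 11.83, 11.80 and 11.57, and HSP90AB1 had 11.07, 11.87, 12.16 and 11.88. HSPA1B had 8.23, 9.26, 9.44 and 9.12 and has a near-identical copy. Genes of polyamine, nucleotide and one-carbon synthesis had a median of 0.211 over 23, nearly all of it between 4 and 8 h (0.352), and 0.0175 against 8 h alone. SRM, spermidine synthase, had 8.56, 9.51, 9.86 and 9.49 and a difference of 0.64 ± 0.33. PER2, of the circadian clock, had 10.10, 9.27, 8.94 and 8.89 and a difference of -0.77 ± 0.27, and the clock list of 11 genes had a median of -0.107. CDKN1A, a p53 target that halts the cycle, had 11.50, 11.39, 10.87 and 10.46 and a difference of -0.78 ± 0.16, while the p53 list of 17 genes had a median of 0.0148.

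Genes often used as stable references had a median of 0.141 over 22. GAPDH was higher late, as given above, CHMP2A had a difference of 0.54 ± 0.11 with -0.02 on its second probe, and VCP had -0.69 ± 0.17.

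Among genes with the largest 12 to 24 h steps, chosen after their values were seen, FSCN1, an actin-bundling protein, had 10.01, 10.18, 9.70 and 8.62, UBD, a ubiquitin-like modifier, had 9.81, 9.81, 9.87 and 8.81, and CCL22 had 7.93, 7.99, 8.05 and 7.17. For each the first 3 arrays lay within 0.5 of each other and 24 h was the lowest. In BAY1238097 their 12 to 24 h steps were 0.01, 0.14 and -0.69. Of the 1080 genes separated by at least 0.5, 14 were not above background on all 4 vehicle arrays, so their differences are limited by background.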
